A study of Mus musculus with 8 samples.

Results

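Glial connexins are the genes of the gap junction protein family that astrocytes and oligodendrocytes express. They were examined here as Gja1, Gjb2 and Gjb6, the connexins of astrocytes, and Gjb1 and Gjc3, the connexins of oligodendrocytes. All probe sets annotated to 1 of these 5 symbols alone were taken, which gave 12 of the 45037 non-control probe sets and 5 of the 18193 named genes. Gja1 had 6 probe sets, Gjb1 and Gjc3 had 2 each, and Gjb2 and Gjb6 had 1 each. The arrays were made from cells labelled as oligodendrocyte precursors, progenitors from which oligodendrocytes form, of ICR mice. They came from cerebral hemispheres of embryos aged 15 days, which were dissociated into mixed cultures and grown for 5 days with 10% serum. A serum-free basal medium followed, in which 48 hr passed at either 31.5 °C or 37 °C, with 4 arrays of total RNA at each temperature. The labels count 3 mice in a group, and no label tells if the 4 arrays came from separate cultures, so errors and p-values measure only the spread between these samples.

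A connexin is a membrane protein that assembles into a hemichannel, and hemichannels of neighbouring cells dock to form a channel that passes ions and small molecules. Connexin pairs between astrocytes and oligodendrocytes link both into a glial network that carries potassium away from active axons. Gja1 encodes Cx43, the main connexin of astrocytes and of radial glia. Gjb6 encodes Cx30 and Gjb2 encodes Cx26, which meningeal cells make as well. Gjb1 encodes Cx32 of myelin, whose loss causes an inherited neuropathy, and Gjc3 encodes Cx29, which lies in the inner myelin membrane beside axonal potassium channels.

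Trimmed means of the raw signal differed by up to 1.89-fold between arrays, and arrays were brought to their common mean. Signals below are scaled signals, and a log2 change is the 31.5 °C level minus the 37 °C level. Values under a floor of 9.80 were raised to it before log2 was taken, and features with a mean signal of at least 36.3, the median of all probe sets, were tested with limma. Arrays with the same replicate number deviated together, so the number pairs the arrays and is used as a block where it changes a call. Markers of the labelled cell type were present: all 14 precursor genes on the array passed the filter and Pdgfra, Olig1, Olig2 and Sox10 were above the floor in all 8 arrays. Genes of other cells were measured too: 22 of 24 astrocyte, 15 of 15 microglia, 14 of 15 neuron and 11 of 15 fibroblast and meningeal genes passed the filter. Of all 18193 named genes 11525 passed it, so passing alone does not show that a cell type was present.

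Only Gja1 and Gjc3 had a level that could be tested. Gjc3, an oligodendrocyte connexin, fell at 31.5 °C, with a mean log2 signal that makes 37 °C 2.17-fold higher. Gja1, an astrocyte connexin, was lower at 31.5 °C within each of the 4 replicate numbers, by 0.25 on the log2 scale, and passed the test only with the replicate number as a block. Gjb2, Gjb6 and Gjb1 lay under the filter. Of all 11525 genes tested, 7.64% were called higher and 7.77% lower at 31.5 °C, and with the block 15% and 15.8%. In these bulk cultures fewer cells of a type and less RNA per cell cannot be told apart.

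**Figure D1:**
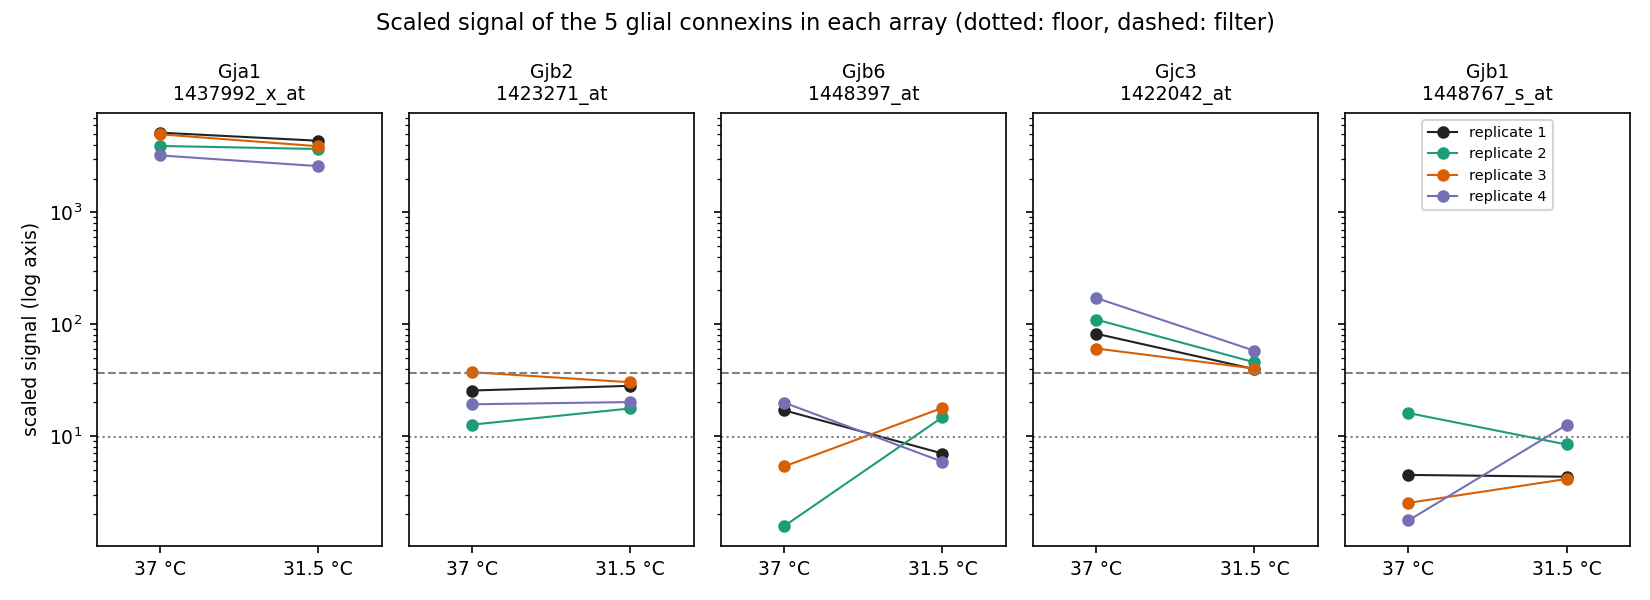
Scaled signal (log axis) of the probe set that stands for each of the 5 genes, at 37 °C and 31.5 °C, with a line joining arrays of the same replicate number. The dotted line is the floor of 9.80 and the dashed line the filter of 36.3. Gja1 lies far above both lines, Gjc3 lies above the filter in all 8 arrays and is lower at 31.5 °C along every line, Gjb2 lies mostly between the lines, and Gjb6 and Gjb1 scatter around the floor.

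The region before the transcription start is shown for these 2 genes, the only members whose signal could be tested. Each line gives the 250 bases before the start, 5′ to 3′ on the gene's strand, from RefSeq's annotation of build GRCm38.p6. Capitals mark a match to the AP-1 or SOX-type motif.
Gja1, chr10:56377050-56377299, plus strand: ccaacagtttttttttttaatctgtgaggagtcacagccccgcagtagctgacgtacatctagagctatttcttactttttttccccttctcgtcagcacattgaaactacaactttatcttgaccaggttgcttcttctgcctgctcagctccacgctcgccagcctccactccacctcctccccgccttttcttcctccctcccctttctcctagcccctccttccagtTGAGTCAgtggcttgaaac
Gjc3, chr5:137963099-137963348, minus strand: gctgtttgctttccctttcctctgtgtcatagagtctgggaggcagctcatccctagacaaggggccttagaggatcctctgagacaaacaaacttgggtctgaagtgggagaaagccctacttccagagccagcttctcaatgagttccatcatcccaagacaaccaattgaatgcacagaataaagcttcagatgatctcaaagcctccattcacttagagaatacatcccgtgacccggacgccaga
Windows of 300 bases, from 250 before to 50 after the start, were matched for all 5 members and searched on both strands, and no match overlapped another. The AP-1 motif TGANTCA was found once in the Gja1 window, 19 bases before the transcription start, and in 7.81% of all 32851 windows of this length. SOX-type letters, ACAAAG or ACAATG, were in 28.6% of all windows. The GC box GGGCGG was in 35.7%. The TATA box TATAAA was in 13.6%. The core of the antioxidant response element, TGACNNNGC, was in 12.4%, and that of the cyclic AMP response element, TGACGTCA, in 1.79%. The Gja1 window held no other of the 6 motifs, the Gjc3 and Gjb6 windows held none, and the Gjb2 window held 2 GC boxes. Gjb1 had 4 windows, in which 3 SOX-type, 3 GC box, 1 TATA box and 1 antioxidant element matches were found. These matches describe the letters only.

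Gja1 was measured by 6 probe sets, all of which passed the filter. The brightest, 1437992_x_at, had signals of 4353, 3673, 3885 and 2582 across the 4 numbered replicates at 31.5 °C, and 5141, 3911, 4973 and 3219 at 37 °C. Replicates 1 and 3 were high and replicate 4 was low at both temperatures, in the same order, and the 2 groups overlapped. The mean at 31.5 °C was 3623 ± 750 (SD, n = 4), against 4311 ± 909 for the 37 °C arrays. The log2 change was -0.25 ± 0.20 (SE; 95% interval -0.70 to 0.19; limma, adjusted p = 0.429). Within replicates 1 to 4 it was -0.24, -0.09, -0.36 and -0.32. The pair means of Gja1 spanned 0.71 on the log2 scale, more than the change with temperature. With the replicate number as a block the same change had an SE of 0.07 and an interval of -0.42 to -0.08, and passed the test (adjusted p = 0.0414). That call did not hold when pair 1, 3 or 4 was left out (adjusted p = 0.109, 0.138 and 0.118) or without the filter (adjusted p = 0.0716). Being lower in all 4 pairs was common: 25.1% of the genes tested were.

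The other Gja1 probe sets gave values of the same sign, as measures of 1 transcript that are not independent. Probe set 1415800_at changed by -0.27 and 1438945_x_at by -0.30, both lower within all 4 numbers, as 24.4% of all probe sets tested were. For 1438650_x_at the value was -0.36 and for 1415801_at -0.30, each lower within 3 of the 4 numbers. The first turned to 0.015 without replicate 2 at 31.5 °C and the second to 0.080 without replicate 4 at 31.5 °C. The dimmest, 1438973_x_at, ranged from 17.6 to 162 over the 8 arrays, and its change within a number ranged from -1.16 to 0.95. Over the 8 arrays its log2 values had r = 0.728 with those of 1438650_x_at and r between -0.0097 and 0.176 with the other 4. Its value of -0.17 turns in sign, to as much as 0.20, when replicate 2 at 31.5 °C or replicate 3 or 4 at 37 °C is left out. None of the 6 passed in the test of all 22519 probe sets, where 6.76% were called lower (limma, adjusted p from 0.385 to 0.898), and 0 of 6 had an unadjusted p under 0.05. With the block 13.9% of probe sets were called lower; 1437992_x_at was at 0.0556, 1415800_at at 0.0590 and 1438945_x_at at 0.0685. The block therefore gave a call for Gja1 among genes and none among probe sets.

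**Figure D2:**
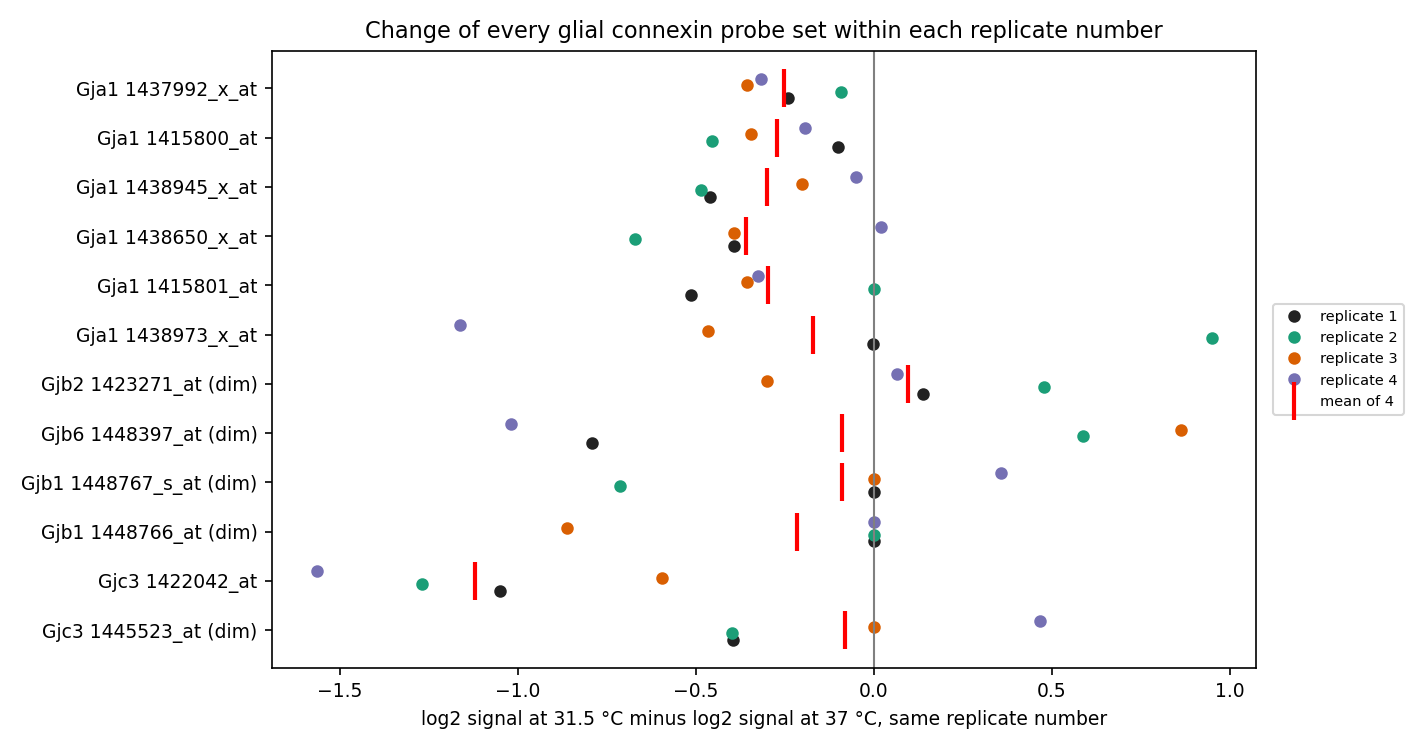
Change of the 12 connexin probe sets, each point being log2 signal at 31.5 °C minus log2 signal at 37 °C for 1 replicate number and the red bar the mean of 4. For the probe sets marked dim, points at exactly 0 are pairs in which both arrays lie at the floor. The 5 brighter Gja1 probe sets have means between -0.36 and -0.25, Gjc3 1422042_at has all 4 points under -0.5, and probe sets marked dim lie under the filter.

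Gjb2, the Cx26 gene, had 1 probe set (1423271_at), with a mean under the filter and no array at the floor. Its signals were 28.1, 17.6, 30.2 and 20.1 by replicate number at 31.5 °C and 25.5, 12.7, 37.2 and 19.2 at 37 °C. Replicate 3 was highest and replicate 2 lowest at both temperatures, and all 4 numbers kept their order. The means were 24.0 ± 6.09 (SD, n = 4) and 23.6 ± 10.5. Within replicates 1 to 4 the log2 change was 0.14, 0.48, -0.30 and 0.07, so its sign was not the same in all numbers. The pair means spanned 1.17 on the log2 scale, against a mean change of 0.10. Without the filter Gjb2 did not pass (limma, adjusted p = 0.961, or 0.729 with the block). The interval of the change in the test of all probe sets was -0.77 to 0.96 without the block and -0.33 to 0.52 with it, so these arrays leave room for changes of that size either way.

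Gjb6, the Cx30 gene, lies next to Gjb2 on chromosome 14, with no protein-coding gene between them in the RefSeq annotation. Its single probe set (1448397_at) read 6.98, 14.7, 17.8 and 5.89 at 31.5 °C and 17.0, 1.57, 5.36 and 19.9 at 37 °C. In each group 2 of the 4 arrays were at the floor. Replicates 1 and 4 were above the floor only at 37 °C and replicates 2 and 3 only at 31.5 °C, so no direction was shared. Unlike those of Gjb2 and Gja1, these values do not keep an order of replicates between temperatures. Without the filter the value did not pass (limma, adjusted p = 0.959).

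Gjb1, the Cx32 gene of myelin, was at or near the floor on both of its probe sets. For 1448767_s_at the signals were 4.33, 8.40, 4.13 and 12.6 at 31.5 °C and 4.49, 16.1, 2.53 and 1.76 at 37 °C. For 1448766_at they were 1.15, 1.87, 10.2 and 9.23 at 31.5 °C, and 8.56, 9.25, 18.6 and 4.96 at 37 °C. On each probe set 3 of the 4 arrays of each group were under the floor, and the array above it was not the same on both. Values at the floor have no order, and no change was read from them. No detection calls came with the signals, so absence of the transcript cannot be told from a dim probe set.

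Gjc3, the Cx29 gene, was measured by 1422042_at at 39.6, 45.5, 40.1 and 57.8 at 31.5 °C, in order of replicate number. The 37 °C signals were 82.0, 110, 60.5 and 171. Replicates 4 and 2 were the highest at both temperatures, and every array at 31.5 °C lay below every array at 37 °C, as for 10.5% of all genes tested. The means were 45.8 ± 8.47 (SD, n = 4) and 106 ± 47.9, with the wider spread at 37 °C. The log2 change was -1.12 ± 0.29 (SE; 95% interval -1.77 to -0.47; limma, adjusted p = 0.0331). Within replicates 1 to 4 it was -1.05, -1.27, -0.59 and -1.56. With the block the interval narrowed to -1.49 to -0.75 (adjusted p = 0.00476). By the size of its fall Gjc3 ranked 67 of 11525 genes, and by p it ranked 1293.

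The fall of Gjc3 kept its direction in every alternative tried, but its call did not always hold. Without the filter, which adds dim genes to those tested, it had adjusted p = 0.0912 (0.0444 with the block). Leaving out replicate 1, 2 or 3 at 31.5 °C gave adjusted p = 0.0823, 0.0744 and 0.0855, and leaving out replicate 1 or 2 at 37 °C gave 0.0519 and 0.0814. The second probe set, 1445523_at, was dim, with signals of 4.42, 8.61, 3.29 and 13.6 at 31.5 °C and 12.9, 12.9, 7.07 and 3.68 at 37 °C. There 5 of 8 arrays were under the floor, and no change was read from it. Averaging both probe sets brought the gene's mean under the filter, with a change of -0.60.

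Set side by side, the change of the oligodendrocyte connexin Gjc3 (-1.12) was larger than that of the astrocyte connexin Gja1 (-0.25), and their intervals overlapped without the block and did not with it. The difference between the genes was not tested. With 1 measurable gene in each class, the values do not describe the classes.

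**Figure D3:**
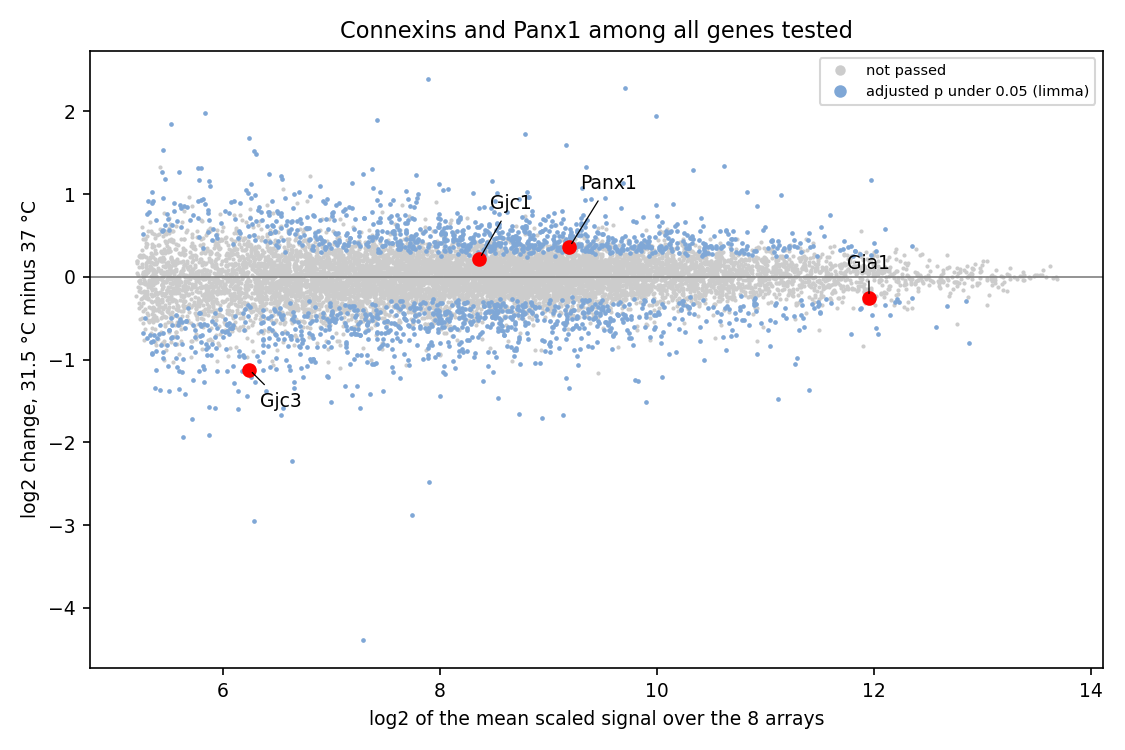
Log2 change (31.5 °C minus 37 °C) against the log2 of the mean scaled signal for all 11525 genes tested, blue where the adjusted p is under 0.05. Gjc3 lies at the dim end with a change of -1.12, Gja1 at the bright end with -0.25, and Gjc1 and Panx1 lie above 0 with 0.22 and 0.36.

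Among the rest of the family, 17 of 23 listed connexin and pannexin genes were on the array under a symbol of their own, and the other 6 were not analysed here. Only 4 passed the filter: Gja1, Gjc3, Gjc1 and Panx1. Of these 1 fell, 0 rose and 3 did not pass, and with the block 2 fell, 1 rose and 1 did not pass. Over all genes tested 7.77% fell and 7.64% rose, and with the block 15.8% and 15%. Gjc1, which encodes the widely expressed Cx45, was at 354 ± 35 and 305 ± 22.5 at 31.5 °C and 37 °C (0.22 ± 0.10, adjusted p = 0.163). Its second probe set, 1447787_x_at, had -0.42, so the probe sets of Gjc1 differ in sign. Panx1, which encodes a pannexin, a channel protein that releases ATP, read 674, 704, 681 and 573 at 31.5 °C, by replicate number, and 534, 569, 432 and 519 at 37 °C. The groups did not overlap, as for 22.2% of all genes tested when both directions are counted. The change was 0.36 ± 0.11 (limma, adjusted p = 0.0567). With the block Panx1 passed (adjusted p = 0.0325). The 13 family genes under the filter were Gjb1, Gjb2, Gjb6, Gja3, Gja4, Gja5, Gja10, Gjb5, Gjd2, Gjd4, Gje1, Panx2 and Panx3. Of their probe sets the brightest, 1435297_at of the neuronal connexin gene Gjd2, had a median signal of 30.2.

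The 23 genes of proteins that bind connexins or carry them to and from the membrane gave 1 rise, 2 falls and 20 that did not pass. Their median was -0.15, where that of all genes tested was -0.0017. With the block 2 rose and 7 fell. Over all genes tested 7.64% were called higher and 7.77% lower, and with the block 15% and 15.8%. Cnst, which encodes consortin, a trafficking receptor of connexins, fell by 0.47 (adjusted p = 0.0105). Eps15, an endocytic adaptor that takes part in the uptake of Cx43, changed by -0.54 (adjusted p = 0.014). Src, a kinase that phosphorylates Cx43, rose by 0.31 (adjusted p = 0.0408). With median scaling of the arrays 0 of these genes rose and 0 fell, where 454 of all genes rose and 271 fell. Tjp1, the scaffold protein gene ZO-1 of gap junction plaques, was at -0.15 ± 0.09 (adjusted p = 0.331).

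Partners of the glial network in potassium, water and transmitter uptake gave no call among 15 genes (limma; 5 at an unadjusted p under 0.05), and with the block 4 rose and 1 fell. Their median was 0.14. The block fit called 15% of all genes tested higher and 15.8% lower. Aqp4, the water channel of astrocyte endfeet, was at -0.77 ± 0.26 (adjusted p = 0.0771) and fell with the block (adjusted p = 0.00199). Kcnj10, the potassium channel that works beside glial gap junctions, was at -0.14 ± 0.14 (adjusted p = 0.563). Slc4a4, a bicarbonate transporter gene, was at 0.63 ± 0.19 (adjusted p = 0.0549) and rose with the block (adjusted p = 0.00686).

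Genes of the paranode and juxtaparanode, the axon and glia contacts at which Cx29 lies, gave 5 falls, 0 rises and 9 that did not pass among 14. Their median was -0.40, and 7.77% of all genes tested were called lower. Nfasc, which encodes the neurofascin of the paranode, fell by 1.25 (adjusted p = 0.0051). Kcna1, a potassium channel gene of the juxtaparanode, changed by -1.01 (adjusted p = 0.0161) and the ankyrin gene Ank2 by -0.49 (adjusted p = 0.0284). With median scaling, and likewise without the filter, 2 of the list fell. The block fit called 7 lower and 1 higher, and of all genes tested 15.8% and 15%. Within replicates 1 to 4 the median of the list was -0.18, -0.48, -0.32 and -0.41, with the smaller falls of Gjc3 in replicates 1 and 3 and the larger in 2 and 4.

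Markers of oligodendrocytes, astrocytes and other cells were measured beside the connexins. For each count below, the share over all genes tested was 7.64% higher and 7.77% lower, or 15% and 15.8% with the block. Of 22 oligodendrocyte differentiation and myelin genes 13 fell, 0 rose and 9 did not pass, at a median of -0.65, and with median scaling 7 fell. With the block 14 of these genes fell and 1 rose. Their summed signal was between 22443 and 29178 at 31.5 °C and between 37187 and 43926 at 37 °C. Mobp, a structural myelin gene, fell from 304 ± 211 at 37 °C to 10.0 ± 7.19 at 31.5 °C (SD, n = 4; adjusted p = 0.000876). With 2 arrays raised to the floor, its fitted change depends on the floor, and it passed the filter through its 37 °C level. The tubulin-binding gene Tppp changed by -2.47 and Cldn11, a tight-junction gene of myelin, by -1.71 (adjusted p = 0.00221 and 0.00311). Of 22 astrocyte genes 1 fell, S100b, which oligodendrocytes also express (-1.67, adjusted p = 0.000336), 0 rose and 21 did not pass. The astrocyte median was -0.05, with 13 genes below 0 and 9 above. With the block 7 fell and 3 rose, the latter being F3 (0.53), Glul (0.24) and Sparcl1 (0.43), with adjusted p = 0.0256, 0.0426 and 0.0199. The summed astrocyte signal ranged from 55137 to 70056 at 31.5 °C and from 60470 to 72310 at 37 °C. The brightest genes in that sum were Vim, Cpe, Apoe and Fabp7, with changes of -0.01, 0.08, 0.003 and -0.05. Gfap and Aqp4 were above the floor in all 8 arrays. Gfap, the astrocyte filament gene, was at -0.64 ± 0.36 (adjusted p = 0.264) and fell with the block (adjusted p = 0.00326). Of 11 fibroblast and meningeal genes, 2 fell and 9 did not pass, and with the block 4 fell. Their summed signal was 10462 to 13446 at 31.5 °C and 10191 to 13719 at 37 °C. The largest part of that sum was Nnat, with means of 7948 at 31.5 °C and 7480 at 37 °C. Slc6a13, a meningeal transporter gene, was at the floor in all 8 arrays. The collagen genes Col3a1 and Col1a1 were above the floor in all 8. Their means were 1722 and 348 at 31.5 °C and 1553 and 506 at 37 °C. Ptgds, a prostaglandin synthase gene that oligodendrocytes also express, changed by -1.07 (adjusted p = 0.00312) and Thy1 by -0.55 (adjusted p = 0.0428). Of 15 microglia genes 0 passed (limma; 2 at an unadjusted p under 0.05) and with the block 6 fell, with a summed signal of 12685 to 22033 at 31.5 °C and 16210 to 30220 at 37 °C. The complement gene C1qb had the smallest p of these (-1.17, adjusted p = 0.0659, or 0.00117 with the block). Of 14 neuron genes 3 rose and 1 fell, and with the block 3 rose and 4 fell. The interneuron factor gene Dlx1 changed by 0.61, the neurofilament gene Nefm by 0.71 and Gap43, a growth cone gene, by -0.63 (adjusted p = 0.00899, 0.0193 and 0.0299). Of 14 precursor genes 2 rose and 5 fell, and with the block 3 rose and 6 fell. The 2 that rose were Pdgfra (0.45) and Lhfpl3 (0.67), each at 0.0373 (limma, adjusted p). Gpr17, a receptor gene of committed precursors, changed by -0.84, and the matrix genes Matn4 and Tnr by -0.87 and -0.73 (adjusted p = 0.00242, 0.00682 and 0.0265). The part of these cells in the values of Gja1, Gjb2 and Gjc3 was not tested.

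**Figure D4:**
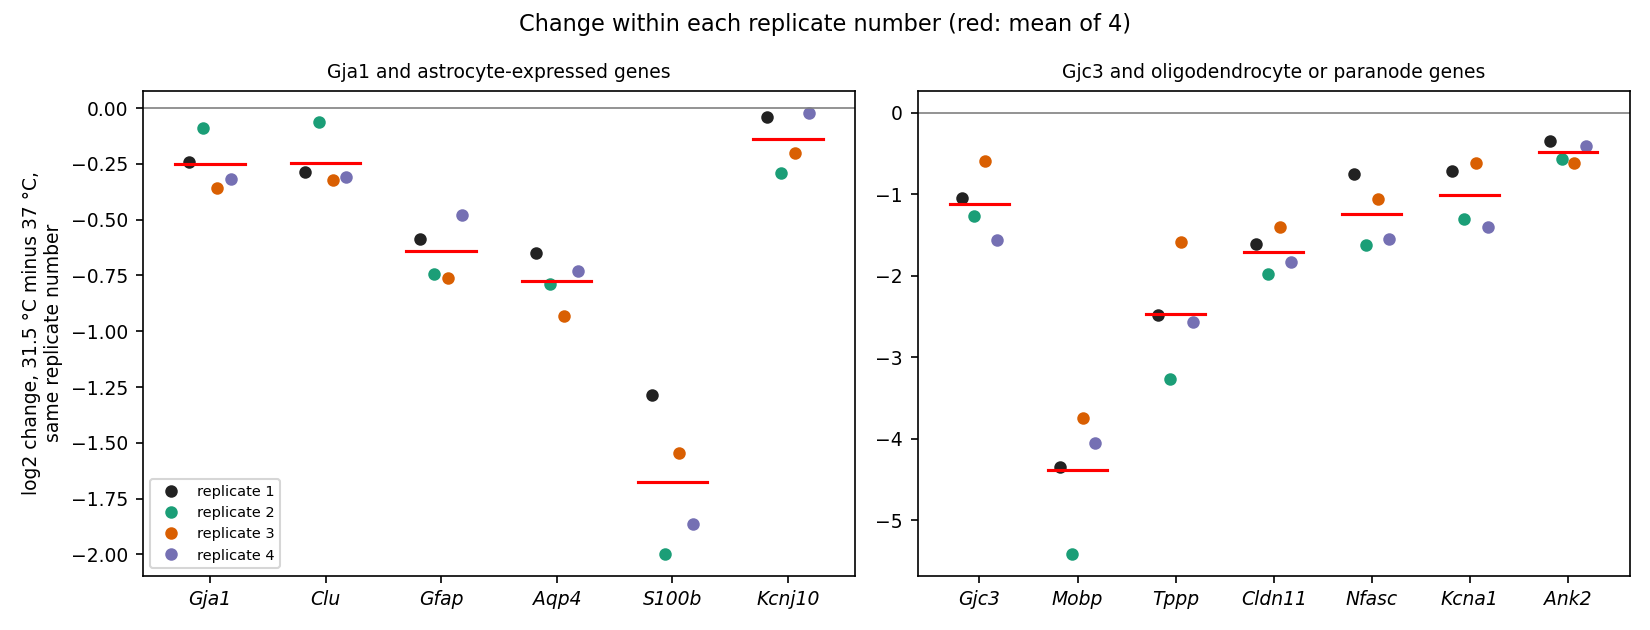
Log2 change (31.5 °C minus 37 °C) within each replicate number, with the mean of 4 as a red bar, for Gja1 beside genes that astrocytes express and for Gjc3 beside oligodendrocyte and paranode genes; the 2 panels have different axes. Gja1 and Clu lie at -0.25 with the smallest change in replicate 2, Kcnj10 at -0.14, and S100b at -1.67. Mobp depends on the floor, and Gjc3 at -1.12 lies between Ank2 at -0.49 and Tppp at -2.47. The genes shown are a selection, all with means below 0. In the full lists 9 of 22 astrocyte, 3 of 22 oligodendrocyte and 2 of 14 paranode genes tested lay above 0.

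The gene whose log2 values over the 8 arrays were most like those of Gja1 was Clu, the astrocyte-secreted chaperone clusterin, with Pearson's r = 0.995. Mydgf, a secreted growth factor gene (r = 0.982), and Dpcd (r = 0.978) came next, with 1 predicted gene passed over. After the mean of each temperature was subtracted the nearest were Clu (r = 0.995), Hint2 (r = 0.993) and Acadm, a fatty acid oxidation gene (r = 0.993). Clu changed by -0.25 ± 0.17 (adjusted p = 0.373), or with adjusted p = 0.0458 in the block fit. For Gjc3 the nearest were Chd5, a chromatin remodeller of neurons (r = 0.992), Cck, a neuropeptide gene (r = 0.986), and Map6, a microtubule stabiliser (r = 0.981). Of these Cck passed the test, with a change of -0.82 (adjusted p = 0.0433) from a 37 °C mean of 55.8 to a 31.5 °C mean of 30.4, under the filter level, while Chd5 was at -0.40 (adjusted p = 0.0578) and Map6 at -0.57 (adjusted p = 0.0731). In the block fit both passed (adjusted p = 0.0141 and 0.00456). After subtraction the nearest to Gjc3 were Lrrc28 (r = 0.99), Vps9d1 (r = 0.98) and Chd5 (r = 0.98). These correlations were picked as the highest of 11525 over 8 arrays that deviate together by replicate number, so they describe likeness only.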

How the data were processed

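Total RNA was measured on 8 Affymetrix mouse arrays of 45101 probe sets. The deposited values are linear intensity signals made with MAS5, per the submitters' processing notes; the version, the scaling target and detection calls are not given in the sources used here. Gene symbols came from the platform annotation: of 45037 probe sets left after 64 controls were dropped, 34945 had 1 symbol, 932 had several and 9160 had none, and 0 symbols needed updating.

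Arrays were multiplied to share 1 trimmed mean (2% off each end), raised to a floor at the 25th percentile (9.80) and put on the log2 scale, which compresses changes of dim probe sets. The probe set with the highest mean stood for its gene. Features above the median mean (36.3) were tested with limma 3.58.1 in R 4.3.3 (lmFit, eBayes, Benjamini-Hochberg, threshold 0.05), which left 11525 genes and 22519 probe sets. Precision is limited by the array number. The fit without the block was tested on simulated data with independent arrays and no pairing. Each simulation changed 200 of 11525 genes, where 1775 were called in the data, so the simulated rates need not hold there. The fit recovered 39.1%, 79.9% and 98.3% of changes of 0.5, 1 and 2 on the log2 scale. Of its calls 5.94% were false. The block fit and changes as small as that of Gja1 were not simulated.

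Log2 values of same-numbered arrays, after group means were subtracted, correlated at 0.541, 0.422, 0.497 and 0.614, and those of different numbers at most at 0.0566, so the replicate number from the titles was used as a block in a second fit. Alternatives changed the scaling, floor, filter, probe set rule, variance model, block and arrays included. Named genes were the 5 members, other testable connexins and pannexins, the 3 genes of smallest p that passed in each list, and the 3 nearest patterns; where fewer than 3 of a list passed, Gfap, Aqp4, Kcnj10, Tjp1 and the gene of smallest p were named. Other genes, such as Thy1, F3, Glul, Sparcl1, Gjd2, Slc6a13 and Lhfpl3, were named after their values were seen. So were Nnat, Col3a1, Col1a1, Vim, Cpe, Apoe and Fabp7. The members and lists were chosen with earlier results of these data known.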

Additional observations from a re-analysis of the deposited data

Results flagged for a closer look

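Of 10 groups of 4 arrays tested among the connexin probe sets, 2 held 3 arrays at the floor and 1 above it, which fixes Dixon's ratio at 1. Both belonged to Gjb1 1448767_s_at. At 31.5 °C replicate 4 had a signal of 12.56, and at 37 °C replicate 2 had 16.05, while the other 3 arrays of each group were raised to the floor. On the scaled signals without the floor the ratios were 0.493 and 0.809, both under the critical value, so neither array stood apart there.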

How the results depend on the processing

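Gja1 was negative in 24 of 24 alternatives and Gjc3 in 22 of 22 that tested it. Gja1 passed in 2, both with the replicate block (-0.25 in the full block fit), and ranged from -0.38 to -0.097 with arrays or pairs left out. Gjc3 passed in 16; without the filter it stayed at -1.12 but did not pass, and it ranged from -1.35 to -0.85 with arrays or pairs left out. A filter at the 70th percentile, or averaging the probe sets of a gene, left Gjc3 untested. With no floor and log2(value + 1), Gjb1 moved to -1.0 because 1448766_at then stood for the gene, while 1448767_s_at, which stood for it otherwise, turned from -0.09 to 0.48. The 1775 genes called became 725 with median scaling (62.6% higher, against 49.6%), 3548 with the replicate block and 872 to 2422 with arrays or pairs left out. The 2977 probe sets became 1630 with median scaling (61.4% higher, against 48.9%), 5919 with the block and 1573 to 3596. The alternative without the filter and with the block was chosen after seeing the data. Counts per list moved as follows, and the cause was not tested. Connexins: lower 1, and 0 without the filter, with the 70th percentile filter or with probe set means, 2 with the block, 0 to 2 with arrays left out; higher 0, and 1 with the 70th percentile filter, the intensity trend, array weights or the block, 0 to 1 with arrays left out. Partners: lower 2, and 0 with median scaling, 1 with probe set means, 7 with the block, 5 with the block and no filter, 2 to 4 with arrays left out; higher 1, and 0 with median scaling, 2 with the block, 0 to 1 with arrays left out. Panglial genes: higher 0, and 1 with the 70th percentile filter or the trend, 2 with probe set means, weights or the block without the filter, 4 with the block, 0 to 4 with arrays left out; lower 0, and 1 with the trend or the block with or without the filter, 0 to 1 with arrays left out. Paranode: lower 5, and 2 with median scaling or no filter, 3 with the block and no filter, 2 to 6 with arrays left out; higher 0, and 1 without the filter, with the 70th percentile filter, trend, weights or block. Oligodendrocyte genes: lower 13, and 7 with median scaling; higher 0, and 1 with the block with or without the filter. Astrocyte genes: lower 1, and 2 with the 70th percentile filter, 3 with the trend, 7 with the block, 6 with the block and no filter, 1 to 6 with arrays left out; higher 0, and 1 with probe set means, 3 with the block, 0 to 2 with arrays left out. Fibroblast genes: lower 2, and 1 with median scaling, no filter, the 70th percentile filter or the trend, 4 with the block, 1 to 4 with arrays left out. Microglia: lower 0, and 1 with the 70th percentile filter or the trend, 6 with the block, 5 with the block and no filter, 0 to 7 with arrays left out. Neuron genes: lower 1, and 0 with median scaling or no filter, 2 with the 70th percentile filter, trend or weights, 4 with the block, 3 with the block and no filter, 0 to 3 with arrays left out; higher 3, and 1 to 3 with arrays left out. Precursor genes: higher 2, and 1 with quantile normalization or probe set means, 0 without the filter, 0 to 2 with arrays left out; lower 5, and 3 with median scaling, 2 without the filter, 3 with the block and no filter, 2 to 6 with arrays left out.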
